A study of Mus musculus with 2 samples.

Results

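A set of 5 immune loci built of repeated gene families were compared by array comparative genomic hybridization (CGH), which measures DNA copies rather than expression. The loci were the immunoglobulin kappa locus (Igk), the T cell receptor beta locus (Tcrb), the joined T cell receptor alpha and delta loci (Tcra/Tcrd), the major histocompatibility complex (MHC) and the natural killer (NK) gene complex. Their members were the array probes placed by the files within fixed windows of the mm9 mouse genome: chr6:67.5-70.7 Mb for Igk, chr6:40.8-41.5 Mb for Tcrb, chr14:53.0-54.9 Mb for Tcra/Tcrd, chr17:33.9-37.4 Mb for the MHC and chr6:128.3-131.0 Mb for the NK gene complex. These windows held 773 of the 170305 probes, or 0.454%. There were 135 probes in Igk, 59 in Tcrb, 94 in Tcra/Tcrd, 311 in the MHC and 174 in the NK gene complex.

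DNA came from androgenetic haploid embryonic stem cells (AG-haESCs), whose single genome is of paternal origin. H19Δ1 and H19Δ2 are 2 clones in which the imprinted *H19* gene and its control region were deleted by CRISPR-Cas9-assisted homologous recombination, and each was expanded through repeated sorting for haploid cells. Each was hybridized in Cy5 against the parental line AGH-OG-3 in Cy3, on 1 array per line without a dye swap. All lines carry the *Oct4-eGFP* transgene, were grown in serum with LIF and 2 kinase inhibitors, CHIR99021 and PD0325901, and were plated briefly to remove feeder cells before DNA was extracted. A log2 ratio of Cy5 over Cy3 above 0 was therefore read as more DNA of that probe in the H19Δ line than in AGH-OG-3. It is relative to the median autosomal probe of the same array. Without a dye swap, a probe's own response to the 2 dyes cannot be told apart from such a difference. With 1 clone and 1 array per line there was no test: errors are SDs over probes, and 95% intervals of a mean cover only the scatter between probes of that array.

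In Igk, Tcrb and Tcra/Tcrd, variable, diversity and joining segments lie in long arrays, and developing lymphocytes cut and join them to make receptor chains. Cells that have not passed through lymphocyte development keep these arrays in germline order. The MHC holds the H2 class I and class II genes, whose products present peptides to T cells, with complement, antigen-processing and cytokine genes between them, and also *Pou5f1*, which encodes the pluripotency factor Oct4. The NK gene complex holds C-type lectin receptors of natural killer cells, including the Klra (Ly49), Klrb (NKR-P1) and Klrc (NKG2) families. Some of them sense MHC class I molecules, while the Klrb receptors have ligands in the Clec2 family.

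The size of these families was counted in a RefSeq gene table of the build GRCm38.p6, used for names and order only, since the probes are on mm9 and the files name no genes. Igk had 162 Igkv variable segments, 60 of them pseudogenes, with 5 Igkj joining segments and 1 Igkc constant gene. Tcrb had 35 Trbv, 2 Trbd, 14 Trbj and 2 Trbc genes, and 13 protein-coding genes of other kinds stood among them, including the trypsinogen genes *Prss1*, *Prss2*, *Prss3*, *Try4*, *Try5* and *Try10*, which encode digestive proteases. Tcra/Tcrd had 130 Trav and 60 Traj segments, with 6 Trdv segments of the delta chain. The H2 family of chromosome 17 had 46 genes, 11 of them pseudogenes. On chromosome 6 there were 14 Klra, 6 Klrb and 3 Klrc genes and 9 Clec2 genes, a family that includes ligands of the Klrb receptors. The 9 were counted by name and include *Clec2l*, which in gene order came before the trypsinogen genes of Tcrb. All of these families lay on the chromosome of their window. Their place within it was not otherwise checked, as no mm9 annotation was used.

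Promoters of 1 pair of genes from the Klra family and 1 from the H2 family are shown, because they let a reader see how alike family members can be at the length of an array probe (45 to 60 bases). Of 14 Klra genes, 11 matched a RefSeq promoter, and 1 of their 55 pairs shared an unbroken run of 60 or more identical bases in the 250 bases before the start site. Of 46 H2 genes, 32 matched, and 4 of 496 pairs did. Between the 2 families no pair of 352 did, and the longest shared run was 13 bases. The pair with the longest run in each family is printed 5′ to 3′ on the minus strand of GRCm38.p6, with that run in capitals. It was 75 bases in *Klra9* (chr6:130193113-130193362) and *Klra3* (chr6:130337627-130337876), which encode Ly49 receptors. It was 86 bases in *H2-T23* (chr17:36032702-36032951), which encodes the nonclassical class I molecule Qa-1, and *H2-T-ps* (chr17:36111677-36111926), a pseudogene. No probe sequence was used here, so whether a probe falls in such a run was not tested.
Klra9: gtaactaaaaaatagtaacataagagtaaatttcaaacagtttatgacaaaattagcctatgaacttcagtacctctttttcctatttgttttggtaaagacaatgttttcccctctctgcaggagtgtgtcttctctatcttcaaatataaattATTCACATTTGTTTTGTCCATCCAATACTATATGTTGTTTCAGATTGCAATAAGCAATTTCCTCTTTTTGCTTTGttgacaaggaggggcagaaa
Klra3: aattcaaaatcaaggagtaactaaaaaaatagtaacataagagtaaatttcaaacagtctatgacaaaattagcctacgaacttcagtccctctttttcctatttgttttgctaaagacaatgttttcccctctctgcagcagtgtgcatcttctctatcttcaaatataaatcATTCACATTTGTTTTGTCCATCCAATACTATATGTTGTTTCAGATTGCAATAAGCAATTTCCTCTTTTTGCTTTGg
H2-T23: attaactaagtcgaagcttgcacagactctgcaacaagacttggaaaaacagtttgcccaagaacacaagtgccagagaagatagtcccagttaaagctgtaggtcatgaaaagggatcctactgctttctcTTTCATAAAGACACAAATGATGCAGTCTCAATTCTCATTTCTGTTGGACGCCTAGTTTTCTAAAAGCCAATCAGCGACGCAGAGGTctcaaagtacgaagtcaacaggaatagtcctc
H2-T-ps: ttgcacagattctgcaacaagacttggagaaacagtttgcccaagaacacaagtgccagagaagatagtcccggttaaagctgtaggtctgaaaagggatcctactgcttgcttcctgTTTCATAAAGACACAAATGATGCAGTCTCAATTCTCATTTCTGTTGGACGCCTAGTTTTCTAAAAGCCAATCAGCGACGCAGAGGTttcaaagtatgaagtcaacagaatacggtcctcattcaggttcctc

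The 2 arrays were checked at the targeted locus. Exactly 2 neighbouring chromosome 7 probes were below -2 in both lines. The probe whose Cy5 signal was well above background on both arrays had -3.67 in H19Δ1 and -3.70 in H19Δ2, and the other was not well above background in Cy5 in either line. The noise of a single probe, from differences between neighbours, was 0.12 on each array. All 777 spots of the immune loci were well above background in both channels and none was saturated. The scanner software marked 1 of these spots per array as an outlier, which removed 1 MHC probe in H19Δ1 and 1 of 5 spots of a Tcra/Tcrd probe in H19Δ2, so 772 and 773 probes were measured.

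The repeated families were unevenly covered by probes, which sets how finely each locus was seen. The MHC had 88.9 probes per Mb and Tcrb 84.3, against 67.1 over all autosomes. The NK gene complex had 64.4, Tcra/Tcrd 49.5 and Igk 42.2. The median distance between neighbouring probe starts was 15666 bp in Igk and 10843 bp over the autosomes, and in the other 4 loci it lay between 9617.5 and 10456 bp. The sparse cover thus took the form of wider steps throughout Igk, and of a few long gaps in Tcra/Tcrd and the NK gene complex.

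Of the autosomal neighbour distances, 180 (0.111%) exceeded 100 kb, and 8 of these were in the immune loci, which held 0.479% of autosomal probes. Igk had 3, the longest with 173 kb free of probes, Tcra/Tcrd had 3, the NK gene complex had 2, and Tcrb and the MHC had 0. In Tcra/Tcrd these were adjacent gaps of 373, 207 and 134 kb, so the 0.741 Mb from 53385672 to 54126687 held 3 probes. The log2 ratios of those 3 probes ran from -0.14 to 0.24 in H19Δ1 and from -0.11 to 0.09 in H19Δ2. In the NK gene complex the longest gap was 551 kb, and 1 probe lay to its right, at -0.004 in H19Δ1 and 0.003 in H19Δ2. Distances over 100 kb covered 37.6% of the Tcra/Tcrd window, 26.3% of the NK gene complex and 12.9% of Igk, and a change lying wholly inside such a gap was not measured.

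**Figure D1:**
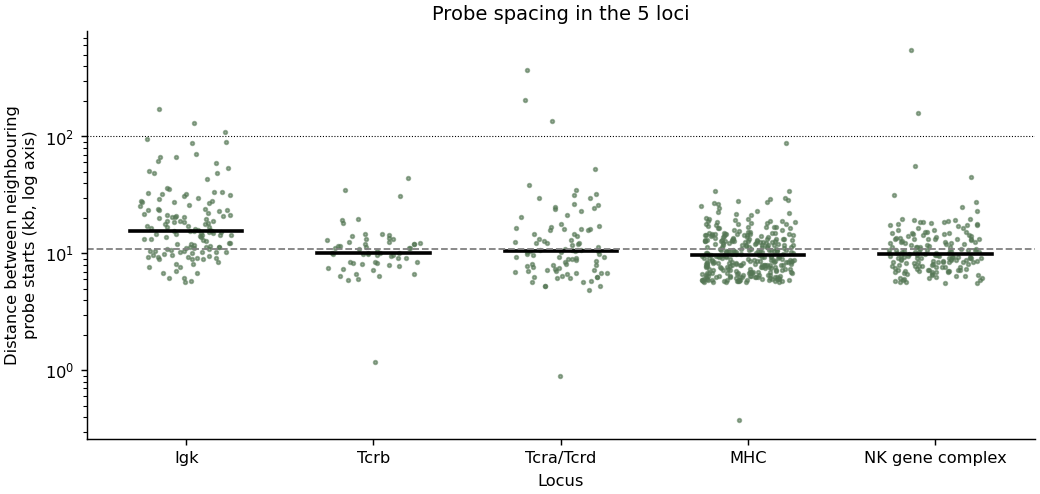
Distance between the starts of neighbouring probes (kb, log axis) in each locus, 1 point per pair of neighbours. Solid lines are medians, the dashed line is the autosomal median of 10843 bp and the dotted line is 100 kb. The long gaps lay in Igk, Tcra/Tcrd and the NK gene complex.

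The level of each locus was compared between lines. In H19Δ1 all 5 loci had medians close to 0, between 0.002 and 0.03. In H19Δ2 the medians of Igk, Tcra/Tcrd, the MHC and the NK gene complex were between -0.005 and 0.01, but Tcrb had a median of 0.12. The Tcrb mean in H19Δ2 was 0.10 ± 0.16 (SD, 59 probes), with a 95% interval from 0.06 to 0.14, a 1.07-fold difference, and 43 of 59 probes were above 0. In H19Δ1 the Tcrb mean was 0.03 ± 0.16 with an interval from -0.01 to 0.07, and 31 of 59 probes were above 0.

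Probe by probe, H19Δ2 minus H19Δ1 at Tcrb had a median of 0.07 and a mean of 0.07 ± 0.14 (95% interval 0.04 to 0.11). The other probes of chromosome 6 had a median difference of 0.05 and a mean of 0.07. They included 289 probes at chr6:55782881-60204117, with means of -0.50 in H19Δ1 and 0.45 in H19Δ2. At Tcrb 40 of 59 probes (67.8%) were higher in H19Δ2, against 63.5% of the other probes of chromosome 6 and 50.8% of all other autosomal probes. With normexp background correction the median difference at Tcrb was 0.043, with a 95% half-width of 0.052, so its interval spanned 0. At Igk the median difference was -0.02 with a half-width of 0.03, which spanned 0, while the mean of -0.03 ± 0.14 had an interval from -0.05 to -0.01. Of the Igk probes 57 of 135 (42.2%) were higher in H19Δ2, against the same 63.5% and 50.8%. The chromosome 6 share takes in the probes left of position 62546677, of which 84.5% were above 0 in H19Δ2. From there to Igk 47.1% were. The share higher in H19Δ2 was not computed for the DNA around Igk alone. At the MHC the median and the mean were both -0.01. At Tcra/Tcrd the median was 0.003 and the mean -0.02, and at the NK gene complex the median was 0.02 and the mean -0.01, so the direction depended on the summary. For these 3 loci the intervals of both summaries spanned 0. Both arrays used DNA of the same reference line, and with no replicate of either the size of these differences could not be set against the spread between arrays.

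**Figure D2:**
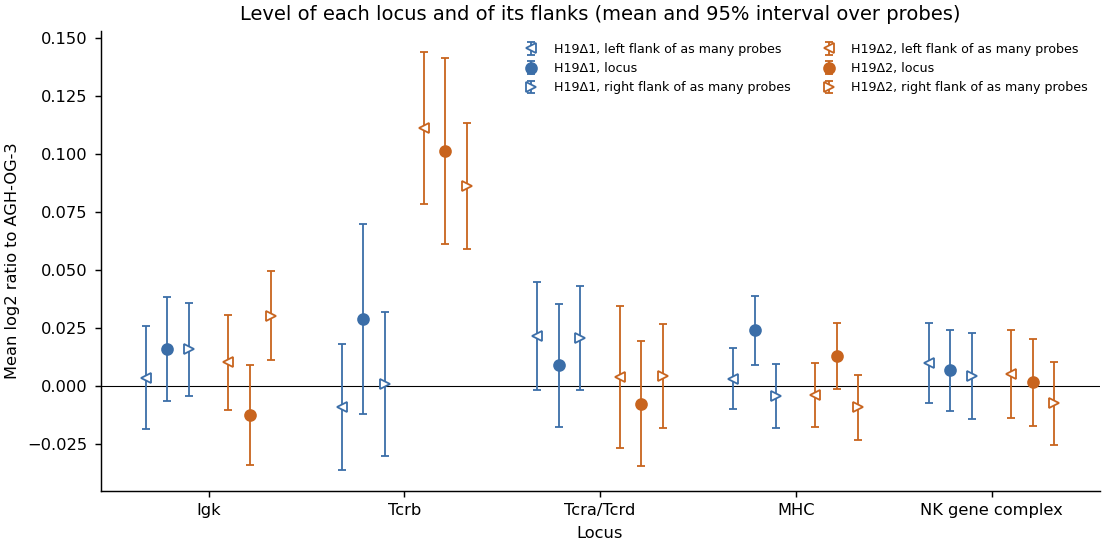
Mean log2 ratio to AGH-OG-3 (y axis) of each locus (filled circles) and of as many probes to its left and right (open triangles), with 95% intervals over probes, in H19Δ1 (blue) and H19Δ2 (orange). Tcrb and both of its flanks stood at 0.09 to 0.11 in H19Δ2.

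The Tcrb level was shared with the DNA around it. In H19Δ2 the 59 probes left of the window had a mean of 0.11 ± 0.13 and the 59 to its right 0.09 ± 0.11. Of these flank probes 84.7% and 86.4% were above 0. In H19Δ1 the same flanks had means of -0.01 and 0.001. Stretches of constant ratio were found along each chromosome by penalised least squares and are called segments. In H19Δ2 Tcrb lay inside a segment of 642 probes, chr6:39455088-47758273, with a mean of 0.08. It began 1.34 Mb before the Tcrb window and ended 6.26 Mb after it, so neither border fell within the window. The segment on its left, of 2416 probes and 35.9 Mb, had a mean of 0.14. On its right lay a segment of only 3 probes with a mean of -0.48, and the raised level went on past it. The next segments, of 290 and 332 probes, had means of 0.10 and 0.05. Further right, the 177 probes of chr6:60219654-62507568 had a mean of 0.07. In H19Δ1 Tcrb lay in a segment of 3711 probes with a mean of -0.0005.

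Igk and the NK gene complex, on the same chromosome, did not share this level. Igk begins 26 Mb after Tcrb ends. In H19Δ2 it lay in a segment of 3586 probes that began at 62546677, which is 21.05 Mb after the Tcrb window and 4.95 Mb before the Igk window, and whose mean was -0.01. The NK gene complex lay in a segment of 2484 probes with a mean of 0.003. Between Tcrb and Igk, the segment chr6:55782881-60204117 had a mean of -0.50 in H19Δ1 and 0.45 in H19Δ2, and it held no probe of an immune locus. The 357 probes from 62546677 to Igk had a mean of -0.01 in H19Δ2, and the 4088 between Igk and the NK gene complex had -0.002. The median of chromosome 6, 0.05 in H19Δ2, was the highest of the 18 autosomes other than chromosome 12.

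**Figure D3:**
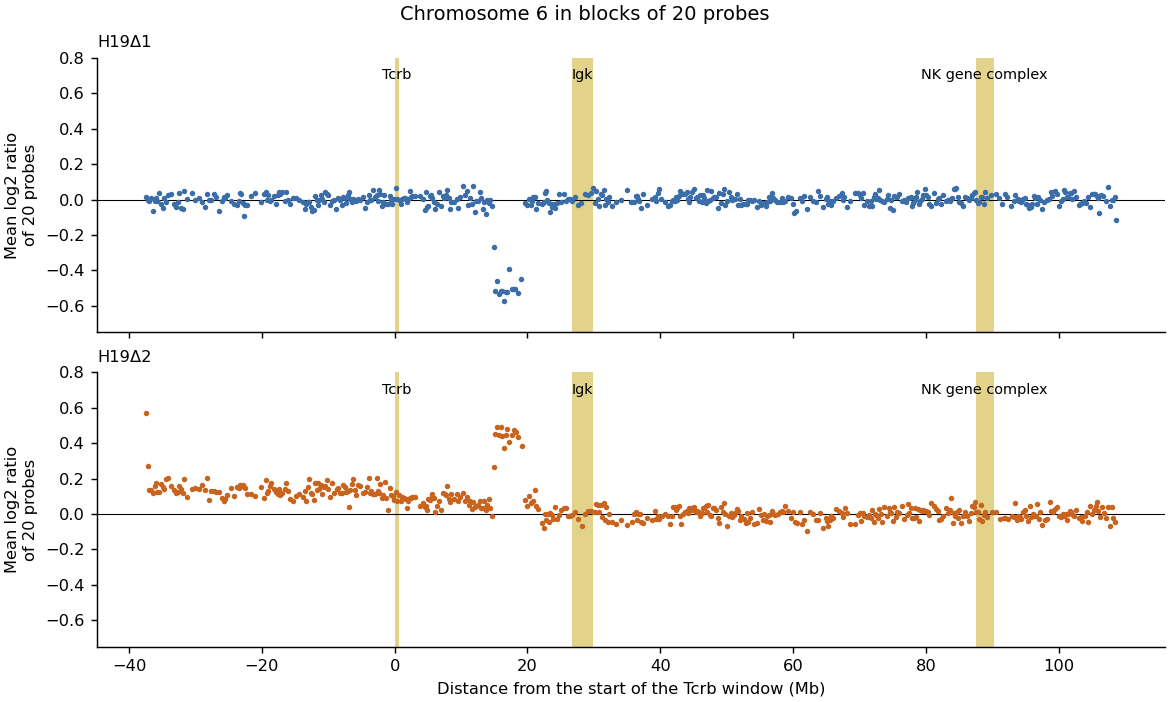
Mean log2 ratio of blocks of 20 consecutive probes along chromosome 6 (y axis) against distance from the start of the Tcrb window (Mb), with the Tcrb, Igk and NK gene complex windows shaded. In H19Δ2 the blocks left of and around Tcrb lay above 0, while those at Igk and the NK gene complex lay about 0. In H19Δ1 the blocks at all 3 loci lay about 0.

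Focal changes within the loci were looked for in 4 ways: segments, single probes, blocks and runs of probes. No segment with a mean of 0.5 or more in size touched any of the 5 windows in either line, and each window lay within 1 segment. Over the autosomes 0.346% of probes in H19Δ1 and 1.55% in H19Δ2 lay in such segments. The segments that held Tcra/Tcrd had means of 0.01 in H19Δ1 and 0.0005 in H19Δ2, and those that held the MHC had 0.01 and 0.004. Each MHC segment reached at least 7.20 Mb past the window on both sides.

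Single probes of the loci were rarely far from 0. No probe was higher than AGH-OG-3 by 0.5 or more in either line, where the autosomal background was 0.102% in H19Δ1 and 1.16% in H19Δ2 (0.198% without chromosome 12). None was lower by 0.5 or more in H19Δ1, against a background of 0.208%. In H19Δ2, 2 of 773 probes were, which is 0.259% against a background of 0.0936%.

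These probes were 1 in Igk and 1 in Tcra/Tcrd. The Igk probe chr6:68877243-68877302 stood at -0.49 in H19Δ1 and -0.56 in H19Δ2, just outside the threshold in H19Δ1 and just inside it in H19Δ2. Its left neighbour was at 0.12 and 0.02 and its right neighbour at -0.10 and -0.24. The Tcra/Tcrd probe chr14:54853738-54853797 had -0.32 in H19Δ1 and -0.60 in H19Δ2, with neighbours at -0.08 and 0.19 in H19Δ1 and at -0.02 and 0.12 in H19Δ2. The Cy3 signal of this probe, from the reference DNA, was 489 beside H19Δ1 and 795 beside H19Δ2, although that DNA was the same line, and its Cy5 signal was 394 and 527. In both cases none of the adjacent probes passed 0.25 in size. On the higher side the probe closest to the threshold was in the MHC, chr17:35640787-35640846, at 0.42 in H19Δ1 and 0.49 in H19Δ2. This probe was unusually bright, with Cy3 and Cy5 signals of 16500 and 22222 beside H19Δ1 and 15658 and 22128 beside H19Δ2. No other lowest or highest probe of a locus had a signal above 8155. What its brightness means for the ratio was not tested.

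The repeat precision of 1 probe could be read in Tcra/Tcrd, where chr14:54885488-54885547 was printed in 5 spots. Its spots ranged from -0.09 to 0.07 in H19Δ1 and, for the 4 used, from -0.18 to -0.03 in H19Δ2. The SD between spots was 0.07 on each array, below the noise of 0.12 between neighbouring probes.

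At a threshold of 0.25 Tcrb stood furthest from the background. In H19Δ1 6 of its 59 probes (10.2%) were higher by 0.25 or more, against 2.57% over the autosomes, and in H19Δ2 9 (15.3%) were, against 4.26% (2.73% without chromosome 12). Its flanks of as many probes held 0 and 3 such probes in H19Δ1 and 8 and 3 in H19Δ2. The 4 probes that passed in both lines were chr6:40908648-40908707 (0.38 in H19Δ1 and 0.33 in H19Δ2), chr6:40961533-40961592 (0.37 and 0.40), chr6:41079318-41079377 (0.37 and 0.27) and chr6:41137397-41137456 (0.28 and 0.31). The lines share the reference DNA and the order of the dyes, and the part of either in these values was not tested. The lowest Tcrb probes were chr6:41018389-41018448 in H19Δ1, at -0.30 there and -0.06 in H19Δ2, and chr6:41164726-41164785 in H19Δ2, at -0.42 there and -0.22 in H19Δ1.

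By SD and by neighbour noise Tcrb was also the locus with the greatest scatter. Its SD was 0.16 in each line, and its noise from neighbouring probes was 0.18 in H19Δ1 and 0.17 in H19Δ2, against 0.12 over all probes. The neighbour noise of the other 4 loci ran from 0.10 to 0.13 in H19Δ1 and from 0.12 to 0.14 in H19Δ2. The SDs of the other 4 loci ran from 0.12 to 0.13 in H19Δ1 and were 0.13 in H19Δ2. They were at or below those of all other autosomal probes, 0.13 in H19Δ1 and 0.16 in H19Δ2 (0.14 without chromosome 12). By the MAD-based SD, which gives little weight to single extreme probes, Tcrb did not stand out. It was 0.12 in H19Δ1, below the 0.14 of the MHC and the 0.13 of Igk, and 0.14 in H19Δ2, as in the MHC, against 0.12 on each array over all other autosomal probes. The MAD-based SD in H19Δ2 was 0.13 in the NK gene complex and 0.12 in Igk and Tcra/Tcrd.

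In the MHC 17 of 310 probes (5.48%) were higher by 0.25 or more in H19Δ1, against the background of 2.57%. In H19Δ2 10 of 311 (3.22%) were, against 4.26%, or 2.73% without chromosome 12. The flanks of as many probes held 5 and 7 in H19Δ1 and 13 and 7 in H19Δ2. Probes lower by 0.25 or more numbered 3 and 6 in the MHC, 0.968% against a background of 2.65% in H19Δ1 and 1.93% against 2.73% in H19Δ2. The MHC mean was 0.02 ± 0.13 in H19Δ1 (95% interval 0.009 to 0.04) and 0.01 ± 0.13 in H19Δ2 (-0.001 to 0.03). The highest MHC probe of H19Δ1 was chr17:36273394-36273445, at 0.42 there and 0.36 in H19Δ2, and 5 probes passed 0.25 in both lines. The lowest was chr17:34744070-34744129 in H19Δ1, at -0.39 there and -0.13 in H19Δ2. In H19Δ2 it was chr17:34517713-34517772, at -0.32 there and 0.13 in H19Δ1.

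In Igk, Tcra/Tcrd and the NK gene complex between 1 and 6 probes passed 0.25 in each line and direction. In Igk 4 were higher (2.96%) and 3 lower (2.22%) in H19Δ1, against backgrounds of 2.57% and 2.65%. In H19Δ2 1 was higher (0.741%) and 6 lower (4.44%), against 4.26% and 2.73%. Tcra/Tcrd had 3 higher in each line (3.19%), with 4 lower in H19Δ1 (4.26%) and 3 in H19Δ2 (3.19%). The NK gene complex had 6 higher (3.45%) and 3 lower (1.72%) in H19Δ1 and 3 higher (1.72%) and 4 lower (2.30%) in H19Δ2. The highest NK gene complex probe was the same in both lines, chr6:129789377-129789436, at 0.36 in H19Δ1 and 0.27 in H19Δ2.

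The remaining extremes were different probes in the 2 lines. The highest Igk probe was chr6:67975117-67975176 in H19Δ1 (0.35, and 0.12 in H19Δ2) and chr6:69757129-69757188 in H19Δ2 (0.27, and -0.05 in H19Δ1). The highest Tcra/Tcrd probe was chr14:53127986-53128045 in H19Δ1 (0.36, and -0.05 in H19Δ2) and chr14:54344555-54344608 in H19Δ2 (0.37, and 0.17 in H19Δ1). The lowest NK gene complex probe was chr6:129495797-129495856 in H19Δ1 (-0.35, and -0.13 in H19Δ2) and chr6:128818783-128818842 in H19Δ2 (-0.43, and -0.01 in H19Δ1).

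**Figure D4:**
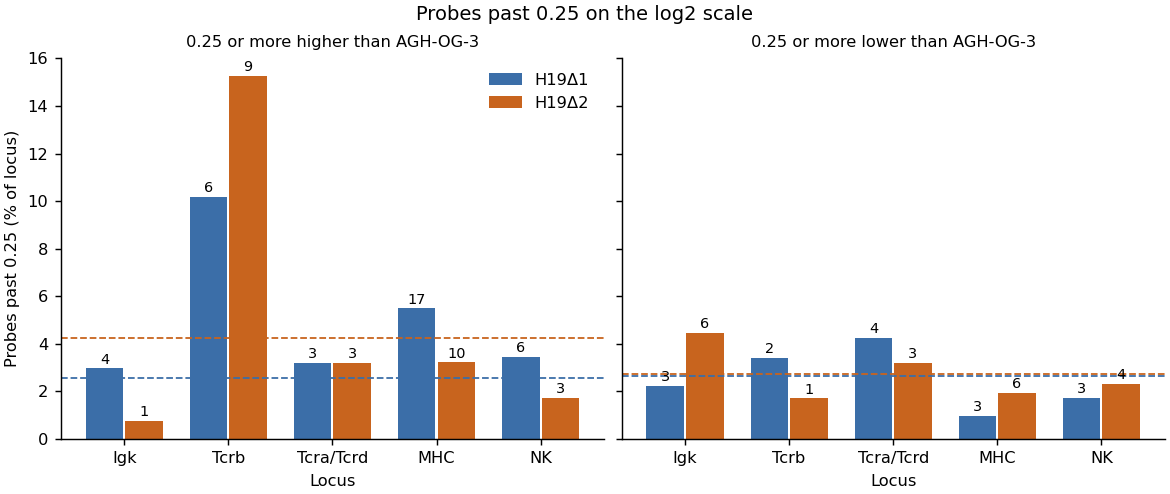
Share of the probes of each locus (y axis, %) that were 0.25 or more higher (left) or lower (right) than AGH-OG-3 on the log2 scale, in H19Δ1 (blue) and H19Δ2 (orange), with the number of probes above each bar. Dashed lines are the shares over all autosomal probes of each array. The Tcrb bars on the left, 10.2% and 15.3%, stood furthest from their lines.

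Blocks of 20 consecutive probes gave the level at a finer scale. Of all autosomal blocks, 95% fell in the range from -0.07 to 0.06 in H19Δ1 and from -0.08 to 0.15 in H19Δ2. The Tcrb blocks of H19Δ2 had means of 0.12, 0.06 and 0.13 from left to right, and those of H19Δ1 had 0.06, 0.03 and -0.01. All 3 were above 0 in H19Δ2 and inside the range of that array. Without the blocks of chromosome 12, the upper end of that range was 0.09, and without chromosomes 6 and 12 it was 0.06, and 2 of the 3 Tcrb blocks then lay above it. The Tcrb blocks of H19Δ1 lay inside the range of their array with and without these chromosomes.

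In the other loci 2 of 74 blocks over both lines lay outside the range, also without these chromosomes, and both were in the MHC of H19Δ1. The block chr17:34501452-34707738 had a mean of 0.09 in H19Δ1, and the block chr17:36610735-36909276 had 0.08. In H19Δ2 the block over the former span had a mean of 0.05, and the block nearest to the latter, chr17:36596038-36890340, had 0.03. The 16 MHC blocks ranged from -0.05 to 0.09 in H19Δ1 and from -0.08 to 0.05 in H19Δ2. The 7 Igk blocks ranged from -0.03 to 0.05 in H19Δ1 and from -0.05 to 0.01 in H19Δ2. The 5 Tcra/Tcrd blocks ranged from -0.03 to 0.04 and from -0.04 to 0.03, and the 9 NK gene complex blocks from -0.03 to 0.05 and from -0.02 to 0.04.

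Neighbouring probes past 0.25 on the same side of 0 were counted as runs. H19Δ1 had 5 runs in the loci, 6.48 per 1000 probes against 1.56 over the autosomes, and H19Δ2 had 1, or 1.29 against 2.47. The autosomal rate of H19Δ2 included chromosome 12 and was not computed without it. Each run was of 2 probes, and all were on the higher side. Past 0.2 the longest run was 3 probes in Tcrb and in the MHC in H19Δ1. In H19Δ1 the Tcrb run, chr6:40949451-40961592, had a mean of 0.33, and the same probes had 0.29 in H19Δ2. The MHC runs of H19Δ1, chr17:34625124-34633076 and chr17:34971082-34978139, had means of 0.31 and 0.30, with 0.25 and 0.06 at the same probes in H19Δ2. The NK gene complex runs, chr6:129783756-129789436 and chr6:130204536-130213031, had 0.33 and 0.29, with 0.18 and 0.09 in H19Δ2. The run of H19Δ2 was in Tcra/Tcrd, chr14:54344555-54369763, at 0.31 there and 0.17 in H19Δ1.

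**Figure D5:**
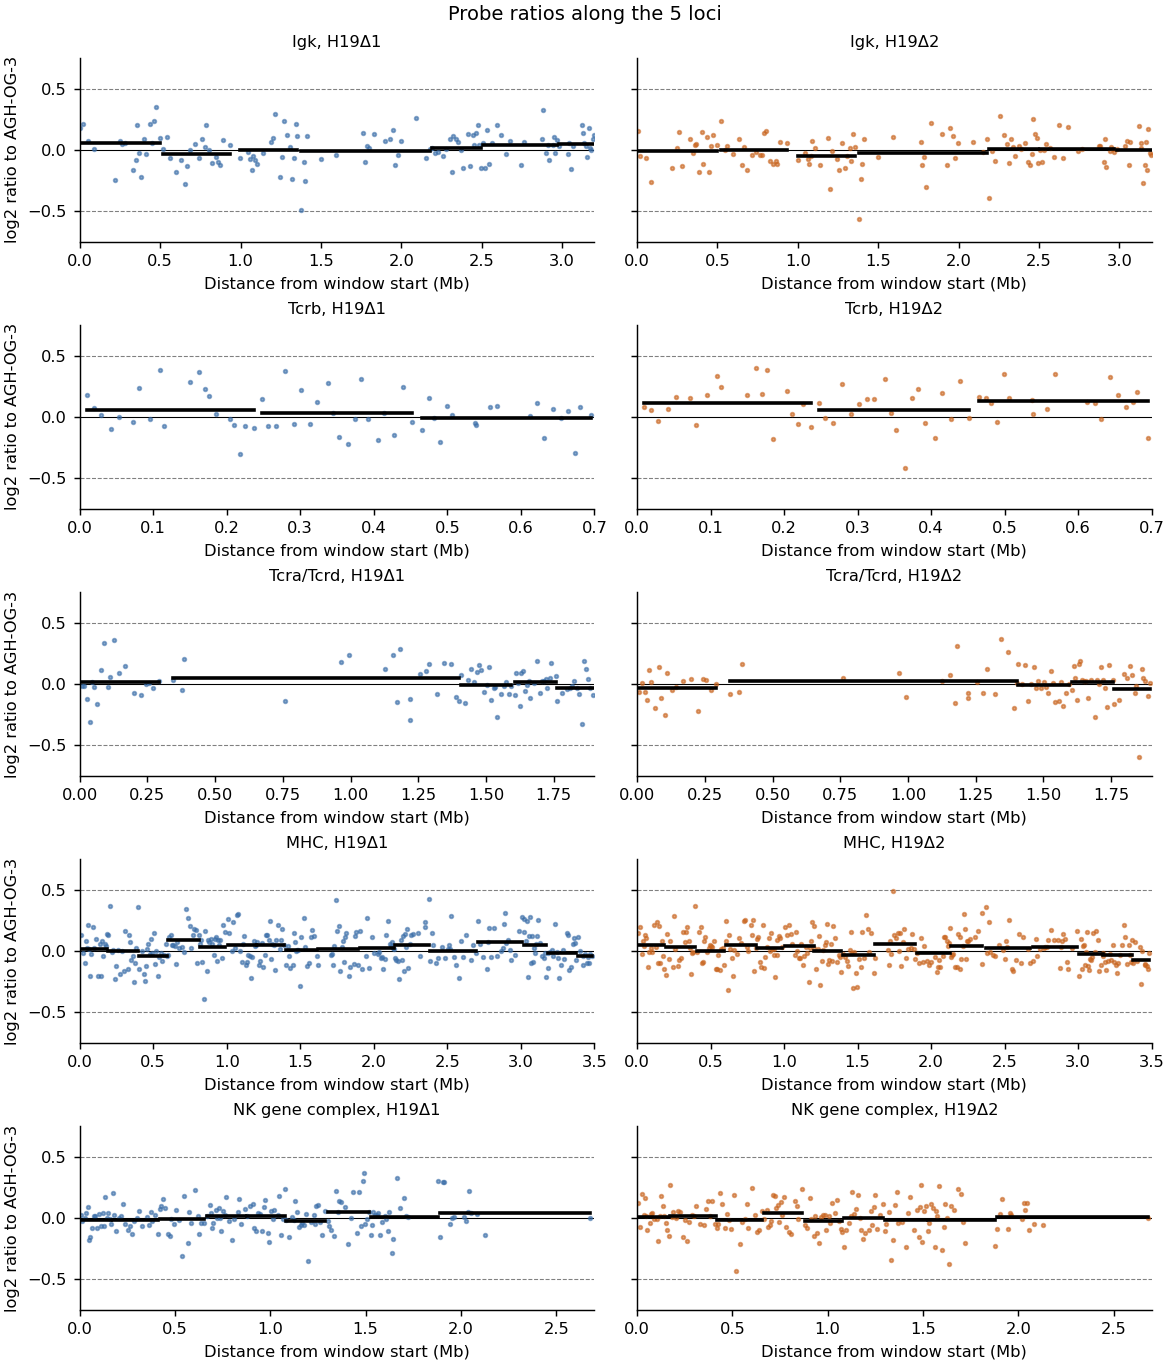
Log2 ratio to AGH-OG-3 of every probe (points, y axis) against distance from the start of its window (Mb) in H19Δ1 (left) and H19Δ2 (right). Black lines are means of blocks of 20 probes and dashed lines mark 0.5 and -0.5. The Tcrb blocks of H19Δ2 lay above 0, and 2 probes of H19Δ2, in Igk and Tcra/Tcrd, lay below -0.5.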

How the data were processed

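Members and lists were chosen with earlier results of these data known. Per the file headers, the scanner tables that the authors deposited came from Feature Extraction 11.5.1.1 (the labels name 10.10). The deposited files hold probe positions on mm9 and processed intensities, made by subtracting background, detrending and a linear dye normalization. The deposited log10 ratio, Cy5 over Cy3, and the series matrix, which holds the same log10 values, served as alternatives.

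The processed intensities of the 2 arrays, which shared 1 slide and 1 scan, gave log2(Cy5/Cy3) for every spot. Control and outlier spots were dropped, repeat spots of a probe were averaged, and the median over chromosomes 1 to 19 was set to 0. No loess or quantile step was used. The number of arrays, 1 per line, limits the precision, and no test was made.

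Segments of at least 3 probes were fitted on chromosomes 1 to 19 and X. Each added border cost 2 times the squared probe noise times ln(probes), and segments were counted at 0.5. Blocks held 20 probes, and a last block of under 10 joined the one before. The segment step was tried on simulated data. The margin allowed there was wider than the smallest planted shift, so it does not show that a shift as small as that at Tcrb would be found. Locus levels were simulated without a check, and blocks were not tried. Named probes were the lowest and the highest of each locus in each line and those of 0.5 or more in size. Others named were chosen after their values were seen: the MHC probe just outside 0.5, the 4 Tcrb probes past 0.25 in both lines, the runs, and a probe with 5 spots.

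Results were recomputed with normexp (offset 50, on median signals), the deposited ratios, other centrings, spot filters, thresholds, penalties, block sizes and summaries. An alternative added after the data were seen centred each probe within 20 bins of signal, and the block ranges without chromosomes 6 and 12 were also added then. RefSeq promoters and names are of GRCm38.p6. The normexp step was run in limma 3.58.1 under R 4.3.3. All else was run in Python 3.11.15 (pandas 2.3.3, numpy 2.4.6, numba 0.67.0, matplotlib 3.10.9).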

Additional observations from a re-analysis of the deposited data

Results flagged for a closer look

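The Igk median lay on opposite sides of 0 in the lines, at 0.029 in H19Δ1 (95% half-width 0.028) and -0.0049 in H19Δ2 (half-width 0.027). Without centring the H19Δ2 median was 0.0031 and with centring within signal bins 0.0032, so both medians were then above 0. The difference was not tested, as each line had 1 array.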

How the results depend on the processing

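Of 95 results under the alternatives, 759 of 820 recomputed values were unchanged and 61 moved. Some alternatives could hardly move a result. In the loci the deposited ratios and the series matrix hold the same values as the main setting. No spot of the loci was dim, and only 1 per array was an outlier. The share unchanged is therefore no measure of how firm the results are. A level or difference counted as moved when it shifted by more than its 95% half-width over probes, and a count or SD when it changed by over 1.5 times. The sign turned in 25 recomputed values, all of results whose own interval spanned 0, such as the line differences of the MHC (0.0014 with normexp), Tcra/Tcrd and the NK gene complex (-0.016 and -0.0051 as means). Segments of 0.5 or more numbered 0 in every locus and line under all alternatives run. The Tcrb median in H19Δ2 ran from 0.055 to 0.12. Its lowest value, with normexp, had a 95% half-width of 0.059, so that interval spanned 0. The line differences paired each probe between the arrays, but no paired test of the lines was possible with 1 array per line. Replicates could not be left out for the same reason.

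With normexp, under which 5.83% of autosomal probes were 0.25 or more higher in H19Δ1 and 8.51% in H19Δ2, the Tcrb median in H19Δ2 was 0.055, the Tcrb line difference 0.043 ± 0.052 (95% half-width) and the highest Igk block there 0.064. Probes past 0.5 made up 0.512% of the autosomal probes in H19Δ1 and 1.73% in H19Δ2. In H19Δ1 they became 1 in Igk, 2 in Tcrb, 1 in Tcra/Tcrd, 1 in the MHC and 1 in the NK gene complex, and in H19Δ2 0 in Igk, 2 in Tcrb, 3 in the MHC and 1 in the NK gene complex. Probes higher by 0.25 became 13 in Igk, 29 in the MHC and 11 in the NK gene complex in H19Δ1. In H19Δ2 they became 4 in Igk, 14 in Tcrb, 6 in Tcra/Tcrd, 25 in the MHC and 19 in the NK gene complex. The longest run became 2 in Igk and 1 in Tcrb in H19Δ1, and 2 in Tcrb, the MHC and the NK gene complex in H19Δ2.

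Without centring, Igk in H19Δ2 had 2 probes higher by 0.25, where 4.6% of autosomal probes were, and the longest runs of Tcrb and the MHC there were 2. Centred on the rest of chromosome 6, whose own level in H19Δ2 was above 0, the H19Δ2 medians were -0.054 in Igk and -0.043 in the NK gene complex, the segment means -0.055 and -0.046 in these and 0.029 in Tcrb, the lowest and highest blocks -0.096 and -0.042 in Igk and -0.071 and -0.0041 in the NK gene complex (the NK median and segment mean and both highest blocks turned from above to below 0), no probe of these 2 loci was higher by 0.25 (0 and 0), and their longest runs were 2. With that centring 3.88% of autosomal probes were higher by 0.25 or more in H19Δ2. A threshold of 0.25 in place of 0.5, in either direction, gave 7 probes in Igk, 8 in Tcrb, 7 in Tcra/Tcrd, 20 in the MHC and 9 in the NK gene complex in H19Δ1 and 7, 10, 6, 16 and 7 in H19Δ2. Over the autosomes 2.57% were higher and 2.65% lower by that much in H19Δ1, and 4.26% and 2.73% in H19Δ2. Blocks of 10 probes in H19Δ2 ran from -0.12 to 0.063 in Igk and up to 0.12 in the MHC. The longest run past 0.2 was 2 probes in Igk in both lines and in Tcrb, the MHC and the NK gene complex in H19Δ2, and 3 in Tcrb and the MHC in H19Δ1. Centring within signal bins, added after the data were seen, gave 3 Igk probes higher by 0.25 in H19Δ2, where 4.45% of autosomal probes were. It gave longest runs of 2 in Tcrb and 1 in Tcra/Tcrd there. The causes were not tested.

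Precision was limited by 1 array per line and by the gaps between probes. A change narrower than the probe spacing, or one inside a gap, was not measured, and a small fold at Tcrb rested on many probes, not on replicates.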
